A study of Mus musculus with 7 samples.

Results

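Peroxisome biogenesis and peroxisomal lipid oxidation were followed through 37 genes in mouse extensor digitorum longus, a muscle of the hindlimb made mostly of fast fibres. The members were 13 Pex genes, which build the organelle, and 24 genes of its membrane transporters and enzymes. They were found by platform gene symbol, and each of the 37 was read by 1 probe set, among 19938 genes with a probe set of a single symbol. The muscles came from 4 wild type mice and 3 mice labelled AMPKα1α2 double knockout, a name for the loss of both catalytic subunits of AMPK, the AMP-activated protein kinase that responds to falling cellular energy. All 7 mice had a mixed background of C57/Bl6 and SV129, and each gave 1 single-colour array. The series title concerns fatty acid use by muscle during exercise. The labels do not give the age or sex of the mice, whether they had been exercised, or the promoter or cell type in which the deletion was made.

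Peroxisomes are small organelles bounded by 1 membrane. Pex proteins insert their membrane proteins, import folded enzymes from the cytosol and control their number. ABC transporters of the D family bring in very long-chain and branched acyl-CoAs, which the enzymes shorten by β-oxidation before the products pass to mitochondria. Branched phytanic acid first loses a carbon by α-oxidation, catalase removes the hydrogen peroxide made on the way, and the organelle also starts the synthesis of ether lipids. Many genes of the pathway are known targets of the nuclear receptor PPARα, and oxidative muscle fibres hold more of these organelles than fast glycolytic ones.

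Of the 37 members, 0 passed an adjusted p of 0.05 in limma (Benjamini-Hochberg, over every probe set tested), where 0.0251% of all genes passed (5 of 19938). At an unadjusted p under 0.05, 9 members were lower in the knockout and 0 were higher. These 9 were Phyh, Ech1, Nudt7, Pex11a, Hsd17b4, Abcd3, Ehhadh, Gnpat and Pex10, or 24.3% of the members, against 6.69% of all genes lower and 3.93% higher at that threshold. The log2 difference was below 0 for 26 of the 37, or 70.3%, against 53.3% of all genes. The median difference was -0.0457 for the members and -0.0049 for all genes. The members were picked with earlier results of these arrays known, so these counts describe the list and test nothing about it. In a whole muscle, fewer cells of a type and less RNA per cell cannot be told apart.

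The start regions of 6 members are printed because the first 4 were lower at an unadjusted p under 0.05 with no overlap between the genotypes, while Pex11g, the paralogue of Pex11a, and Cat were not. Each is the 150 bases just before the RefSeq start of the gene in GRCm38.p6, written 5′ to 3′ on the gene's strand. Capitals mark the GC box (GGGCGG), the CCAAT box (CCAAT) and the element of nuclear respiratory factor 1 (NRF1, GCGC and TGCGC with 1 base between), searched on both strands.
Phyh, chr2:4918846-4918995, plus strand: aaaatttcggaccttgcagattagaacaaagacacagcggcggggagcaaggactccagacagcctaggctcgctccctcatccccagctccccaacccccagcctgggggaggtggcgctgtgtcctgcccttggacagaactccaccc
Ech1, chr7:28825188-28825337, plus strand: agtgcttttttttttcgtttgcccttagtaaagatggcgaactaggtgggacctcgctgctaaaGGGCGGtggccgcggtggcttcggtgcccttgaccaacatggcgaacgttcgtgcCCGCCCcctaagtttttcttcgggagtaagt
Nudt7, chr8:114133424-114133573, plus strand: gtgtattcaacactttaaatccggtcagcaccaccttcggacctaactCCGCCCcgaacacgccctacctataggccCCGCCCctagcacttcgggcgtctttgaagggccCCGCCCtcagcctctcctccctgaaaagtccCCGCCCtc
Pex11a, chr7:79743132-79743281, minus strand: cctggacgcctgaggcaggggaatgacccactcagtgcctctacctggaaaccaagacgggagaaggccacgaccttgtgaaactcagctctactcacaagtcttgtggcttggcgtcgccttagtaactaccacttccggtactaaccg
Pex11g, chr8:3467649-3467798, minus strand: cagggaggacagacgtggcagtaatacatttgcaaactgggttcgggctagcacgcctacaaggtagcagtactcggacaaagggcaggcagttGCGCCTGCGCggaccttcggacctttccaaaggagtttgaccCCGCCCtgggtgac
Cat, chr2:103485154-103485303, minus strand: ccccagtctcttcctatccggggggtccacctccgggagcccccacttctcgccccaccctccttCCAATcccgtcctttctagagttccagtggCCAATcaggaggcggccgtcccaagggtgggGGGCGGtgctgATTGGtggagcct
In these stretches Phyh and Pex11a held none of the 3 motifs, Ech1 held 2 GC boxes and Nudt7 held 4. Pex11g held 1 GC box and 1 NRF1 element, and Cat held 1 GC box and 3 CCAAT boxes. A match is a string of letters and not a bound site.

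Over windows of 300 bases, from 250 before to 50 after the start, 30 of the 37 members had an entry in the RefSeq promoter table and the promoters of the other 7 were not analysed here. The direct repeat bound by PPAR with its partner RXR, AGGTCA given again in the same direction after 1 base, was in 0 of the 30. It was in 8, or 0.0512%, of all 15614 tested genes that had a window. The single half-site AGGTCA, which the direct repeat also contains, was in 4 members (Cat, Pex11g, Phyh and Scp2), or 13.3% against 16.3%. The element TCAAGGTCA, read by oestrogen-related receptors and itself holding the half-site, was in 0 members against 0.346% of all genes. The direct repeat and this element are so rare as exact strings that 0 of 30 says little about either receptor. The NRF1 element was in 4 members (Abcd3, Nudt7, Pex10 and Pex11g), 13.3% against 7.85%, and 3 of these 4 belong to the 9 lower members. The GC box was in 23 members, 76.7% against 52.9%. It was held by 6 of the 8 lower members with a window and by 17 of the 22 remaining members. The CCAAT box was in 14 members, 46.7% against 41.7%, of which Ehhadh was the 1 lower member, so 1 of 8 lower and 13 of 22 remaining members held it. No test was made of these shares, and windows outside this stretch were not searched.

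Among the enzymes, Phyh stood apart by the size of its difference. Phyh, phytanoyl-CoA 2-hydroxylase, carries out the first step of α-oxidation (probe set 10469046, gene at chr2:4918996-4938743, GRCm38.p6). It read 11.65, 11.49, 11.54 and 11.50 in wild type replicates 1 to 4 and 11.12, 11.12 and 10.99 in knockout replicates 1 to 3. Every knockout array read below every wild type array, with a gap of 0.37 between the groups. The log2 difference was -0.47 ± 0.05 (SE), or 1.38-fold lower, with an adjusted p of 0.083 in limma, and it was 12th of 19938 genes in order of p. Phyh was the 1 member with an adjusted p under 0.10, a level reached by 0.361% of all genes. The second α-oxidation enzyme, the lyase Hacl1, differed by 0.10 ± 0.06 with a 95% interval of -0.03 to 0.24, so the signs of the 2 differed and the interval of Hacl1 held 0.

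The auxiliary and coenzyme A enzymes included the next members in order of p. Ech1, a dienoyl-CoA isomerase for unsaturated chains that is found in mitochondria as well as peroxisomes (probe set 10551614, chr7:28825338-28832239), read 10.97, 11.04, 11.09 and 10.93 in wild type. In the knockout it read 10.80, 10.69 and 10.78, again with no overlap. The difference was -0.25 ± 0.05 (1.19-fold lower, limma adjusted p = 0.15). The other auxiliary enzymes, the enoyl-CoA reductase Pecr and the short-chain reductase Dhrs4, differed by 0.046 ± 0.061 and 0.018 ± 0.051.

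Nudt7, a hydrolase that degrades coenzyme A inside the peroxisome (probe set 10575685, chr8:114133574-114154731), read 8.81, 8.93, 8.93 and 8.85 in wild type. It read 8.73, 8.53 and 8.68 in the knockout, below every wild type array. The difference was -0.23 ± 0.06 (1.17-fold lower, limma adjusted p = 0.26). Nudt12, a related hydrolase that acts on NADH, differed by -0.18 ± 0.09 with overlapping genotypes, and leaving out knockout replicate 2 gave -0.089, against -0.25 when replicate 1 was left out. The thioesterase Acot8 and the carnitine octanoyltransferase Crot, which prepare shortened chains for leaving the organelle, differed by -0.019 ± 0.026 and 0.033 ± 0.072.

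**Figure D1:**
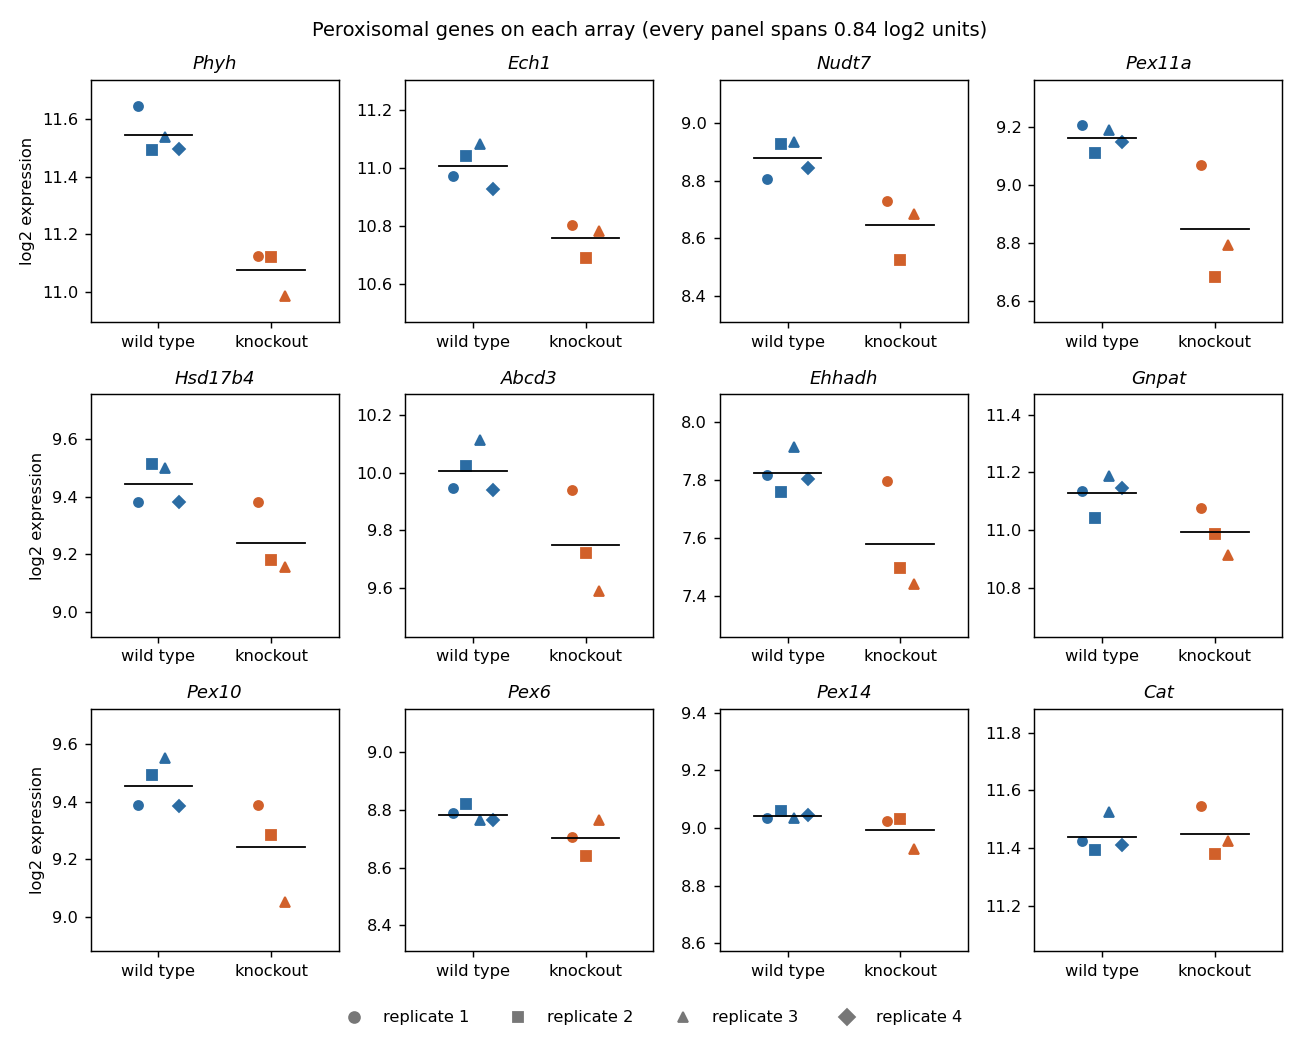
Log2 expression of 12 peroxisomal genes on each of the 7 arrays, with wild type in blue, knockout in orange, a marker shape for each replicate number and a black line at each group mean. Phyh, Ech1, Nudt7, Pex11a and, by a gap of 0.0038, Pex14 show no overlap between the genotypes, and Cat overlaps throughout. Knockout replicate 1 gives the highest knockout value in all 9 members with an unadjusted p under 0.05, Pex11a, Abcd3 and Ehhadh among them.

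The 2 multifunctional enzymes of β-oxidation were both lower, while the thiolases that follow them were not. Ehhadh, the L-bifunctional enzyme (probe set 10438575, chr16:21761285-21787834), read 7.82, 7.76, 7.91 and 7.80 in wild type and 7.80, 7.50 and 7.44 in the knockout. Knockout replicate 1 lay inside the wild type range and replicates 2 and 3 below it. The difference was -0.25 ± 0.09 (1.19-fold lower, limma adjusted p = 0.41). Hsd17b4, the D-bifunctional enzyme that also handles branched and bile acid chains (probe set 10455656, chr18:50128201-50196270), read 9.38, 9.51, 9.50 and 9.38 in wild type. It read 9.38, 9.18 and 9.16 in the knockout, where replicate 1 equalled wild type replicates 1 and 4. The difference was -0.20 ± 0.07 (1.15-fold lower, limma adjusted p = 0.37). The thiolases Acaa1a and Acaa1b, near-identical copies whose probe sets may share signal, differed by 0.11 ± 0.07 and 0.033 ± 0.075. Acaa1a was 0.029 without knockout replicate 3, the 1 knockout array above the wild type range. Acaa1b, the dimmest member, turned to -0.054 without that array.

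The oxidases and the other enzymes of branched chains and bile acid side chains had differences below 0 over the 7 arrays, and 0 of these 4 had an unadjusted p under 0.05. Amacr was above 0 after quantile normalization (0.0035) and without wild type replicate 1 (0.045), and Acox2 without wild type replicate 3 (0.0023). They were the oxidases Acox2 (-0.019 ± 0.033) and Acox3 (-0.062 ± 0.040), the sterol carrier protein and thiolase Scp2 (-0.085 ± 0.097) and the racemase Amacr (-0.012 ± 0.077). Scp2 was -0.0030 without knockout replicate 3, against -0.17 when replicate 1 was left out, so its size rested on single arrays.

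Of the transporters, Abcd3 was lower. Abcd3, the PMP70 transporter for branched and dicarboxylic acyl-CoAs (probe set 10501832, chr3:121758904-121815302), read 9.95, 10.02, 10.11 and 9.94 in wild type and 9.94, 9.72 and 9.59 in the knockout. Knockout replicate 1 equalled the lowest wild type array and replicates 2 and 3 lay below it. The difference was -0.26 ± 0.09 (1.20-fold lower, limma adjusted p = 0.39). Abcd2, which takes very long unsaturated chains, was the most variable member, from 10.35 to 10.87 in wild type and from 10.56 to 11.20 in the knockout. It differed by 0.13 ± 0.18, and by -0.044 without knockout replicate 1, which gave the highest value. Abcd4, a family member that serves cobalamin transport in lysosomes, differed by -0.015 ± 0.030.

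Ether lipid synthesis and catalase showed small differences. Gnpat, the acyltransferase that begins ether lipid synthesis (probe set 10576506, chr8:124863033-124890057), read 11.14, 11.04, 11.19 and 11.14 in wild type. It read 11.08, 10.99 and 10.91 in the knockout, and replicate 1 fell inside the wild type range. The difference was -0.14 ± 0.05 (1.10-fold lower, limma adjusted p = 0.44). Agps, the synthase of the next step, differed by -0.0022 ± 0.044, and Far1, the reductase that supplies the fatty alcohol, by 0.11 ± 0.06. Cat, catalase (probe set 10485466, chr2:103453904-103485153), read 11.42, 11.39, 11.53 and 11.41 in wild type and 11.55, 11.38 and 11.42 in the knockout. The catalase groups overlapped fully. The difference was 0.011 ± 0.053 with a 95% interval of -0.11 to 0.14, so a change of more than about 1.1-fold in either direction lies outside that interval.

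**Figure D2:**
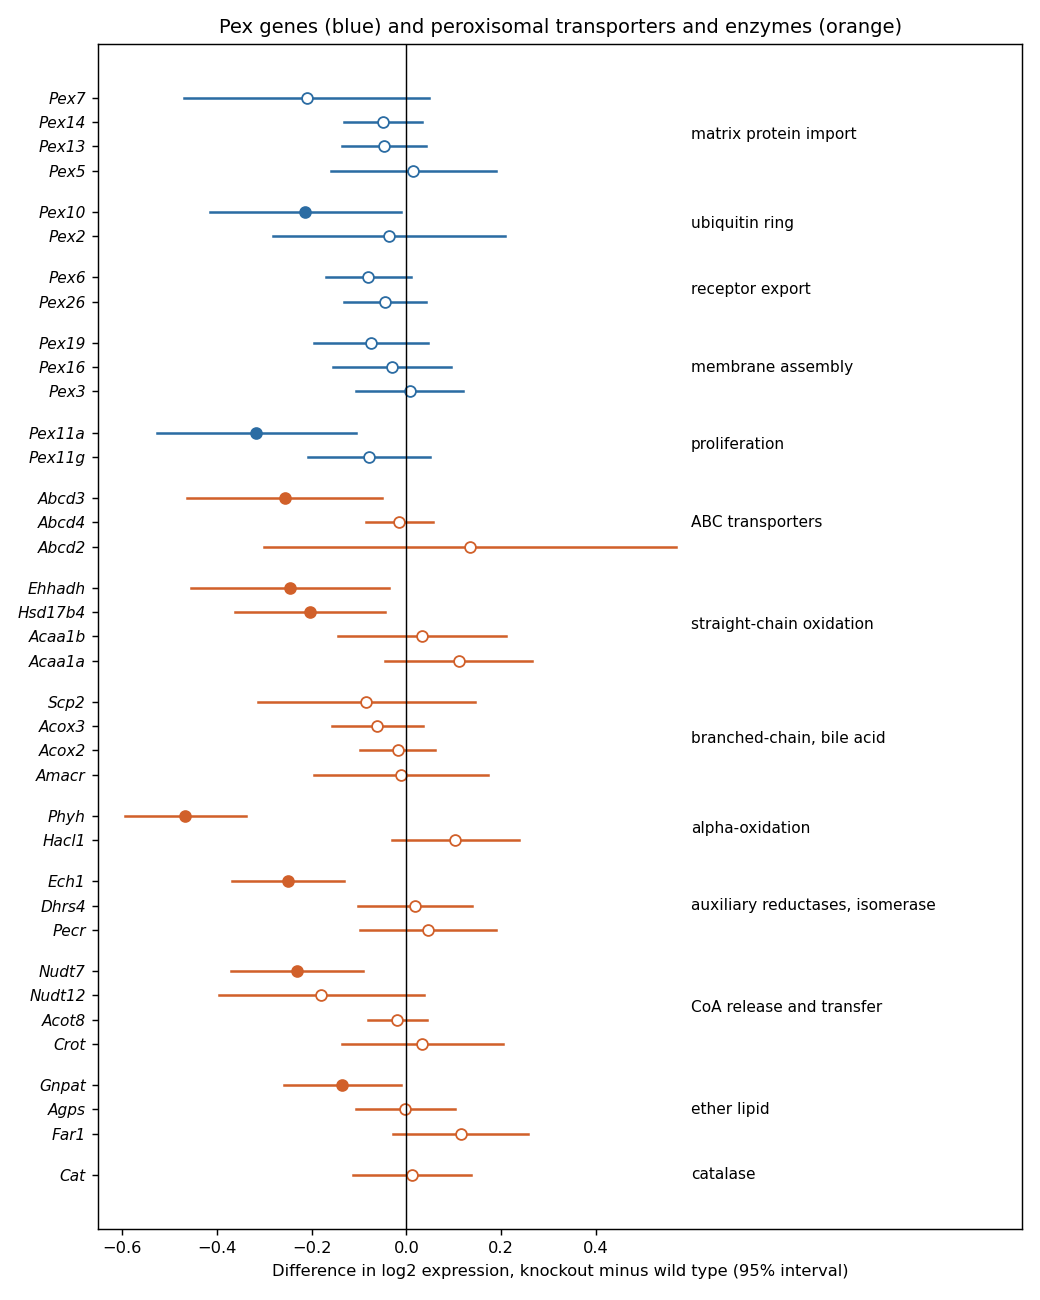
Log2 difference, knockout minus wild type, of all 37 members with its 95% interval from limma, ordered by role, with Pex genes in blue and transporters and enzymes in orange; filled points have an unadjusted p under 0.05. The 9 filled points all lie left of 0, from Phyh at -0.47 to Gnpat at -0.14, and Abcd2 has the widest interval.

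Among the Pex genes, Pex11a and Pex10 were the 2 of 13 with an unadjusted p under 0.05. Pex11a, the membrane protein that promotes elongation and division of peroxisomes (probe set 10564805, chr7:79735957-79743131), read 9.21, 9.11, 9.19 and 9.15 in wild type. In the knockout it read 9.07, 8.68 and 8.79, with no overlap but with replicate 1 only 0.039 below the lowest wild type array. The difference was -0.32 ± 0.09 (1.25-fold lower, limma adjusted p = 0.30). Its paralogue Pex11g differed by -0.079 ± 0.054.

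Pex10, a ring-finger ubiquitin ligase that recycles the import receptor (probe set 10510982, chr4:155067030-155072406), read 9.39, 9.49, 9.55 and 9.39 in wild type. It read 9.39, 9.29 and 9.05 in the knockout, where replicate 1 lay within the wild type range. The difference was -0.21 ± 0.09 (1.16-fold lower, limma adjusted p = 0.45), and -0.12 without knockout replicate 3. Pex2, its partner in the ring complex, differed by -0.037 ± 0.10.

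Pex6, an ATPase that pulls the receptor back out of the membrane (probe set 10445607, chr17:46711476-46725543), came next among the Pex genes in order of p. It read 8.79, 8.82, 8.76 and 8.76 in wild type and 8.71, 8.64 and 8.76 in the knockout, where replicate 3 equalled the lowest wild type arrays. It differed by -0.08 ± 0.04 (1.06-fold lower, limma adjusted p = 0.52), or -0.049 without knockout replicate 2, and Pex26, its anchor, by -0.046 ± 0.037.

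The import receptors Pex5 and Pex7 read the 2 kinds of peroxisomal targeting signal, and Pex13 and Pex14 form their docking site. Pex14 (probe set 10518546, chr4:148960535-149099843) read 9.03, 9.06, 9.03 and 9.04 in wild type and 9.03, 9.03 and 8.93 in the knockout. The genotypes did not overlap, but the gap was 0.0038, and the difference was -0.049 ± 0.035 with a limma adjusted p of 0.69, and -0.015 without knockout replicate 3. Pex7, the receptor that carries Phyh, Agps and the thiolases, differed by -0.21 ± 0.11 with overlapping genotypes. It was -0.12 without knockout replicate 3 and -0.29 without wild type replicate 2. Pex5 and Pex13 differed by 0.015 ± 0.074 and -0.048 ± 0.037. The membrane assembly factors Pex3, Pex16 and Pex19, which insert membrane proteins, differed by 0.0066 ± 0.047, -0.031 ± 0.053 and -0.074 ± 0.051.

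Set side by side, most Pex genes lay slightly below wild type, while the transporters and enzymes held both the most negative and the most positive difference of the list. The difference was below 0 for 11 of 13 Pex genes (84.6%), with Pex3 and Pex5 also below 0 after median centring of the arrays, and for 15 of 24 transporters and enzymes (62.5%). The median was -0.0494 for Pex genes, with a range of -0.32 to 0.015, and -0.0167 for the rest, with a range of -0.47 to 0.13. At an unadjusted p under 0.05 the counts were 2 of 13 (15.4%) and 7 of 24 (29.2%). The genotypes did not overlap, with the knockout lower, for 2 Pex genes and 3 enzymes, or 5 members in all (13.5%), and with the knockout higher for 0, where 5.33% of all genes were lower and 3.29% higher without overlap. No test of the difference between the 2 classes was made, since both were chosen with results known. On each array the median over the Pex genes, each relative to its own wild type mean, was 0.0042, -0.0096, 0.027 and -0.020 in wild type and -0.049, -0.13 and -0.072 in the knockout. Over the transporters and enzymes the same median was 0.0017, -0.048, 0.038 and -0.011 in wild type and -0.020, -0.054 and -0.031 in the knockout. The 3 knockout medians were thus the lowest for the Pex genes, and overlapped wild type replicate 2 for the others. This separation did not hold for the mean over the Pex genes. By the mean, knockout replicate 1 (-0.024) lay above wild type replicates 2 (-0.028) and 4 (-0.027). For the transporters and enzymes the mean of knockout replicate 1 (-0.0058) also lay above that of wild type replicate 2 (-0.054).

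**Figure D3:**
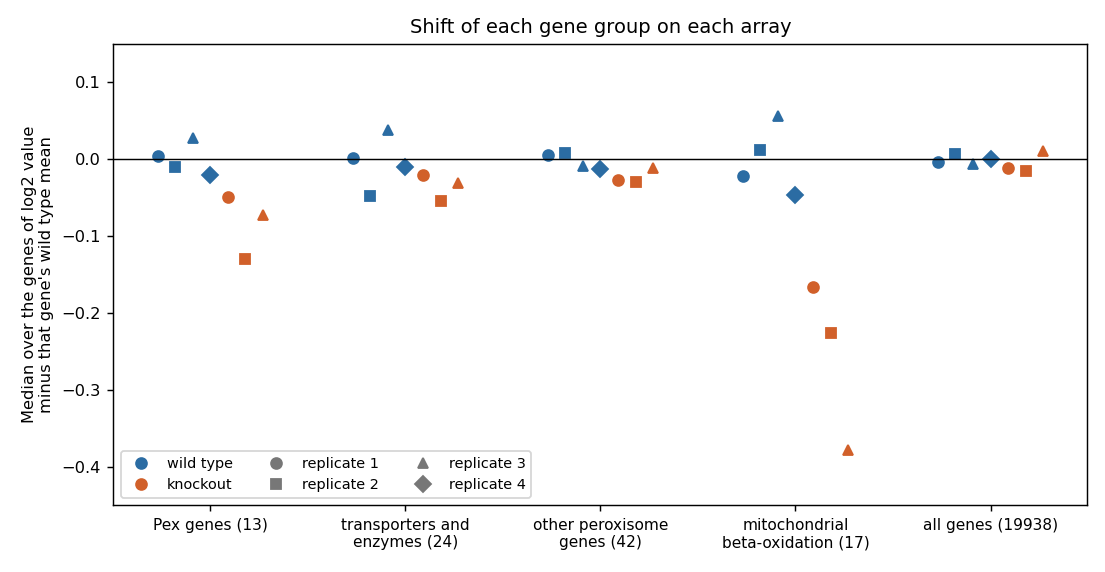
Median over the genes of a group of the log2 value minus that gene's wild type mean, on each array, for Pex genes, peroxisomal transporters and enzymes, other peroxisome genes, mitochondrial β-oxidation genes and all genes. The knockout medians are -0.049 to -0.13 for Pex genes, -0.020 to -0.054 for transporters and enzymes, and -0.17 to -0.38 for mitochondrial β-oxidation.

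The knockout arrays differed among themselves in these genes, and with 1 array per mouse, animal and array quality cannot be told apart. Knockout replicate 3 had the lowest limma array weight (0.294, the others 0.765 to 1.99) and the highest array median (7.58, the others 7.50 to 7.54). In all of the 9 lower members knockout replicate 1 gave the highest of the 3 knockout values. In 5 of them it lay within the wild type range, while replicates 2 and 3 were below every wild type array in 9 of 9. The 9 were picked by p on these same arrays, which favours low knockout values, so these counts test nothing about the replicates. Over all 37 members, replicate 1 was below all wild type arrays for 8, replicate 2 for 18 and replicate 3 for 17. The share of all genes below wild type on each single array was not computed, so these counts only describe the list. The SD was larger in the knockout for 26 of 37 members (70.3%), against 60.1% of all genes. Without knockout replicate 2 or without knockout replicate 3, 4 of the 9 lower members kept an unadjusted p under 0.05. Those were Phyh, Ech1, Nudt7 and Pex11a in both cases, and Hsd17b4, Abcd3, Ehhadh, Gnpat and Pex10 were lost. Without wild type replicate 3, 5 were kept, and Abcd3, Ehhadh, Gnpat and Pex10 were lost. Without wild type replicate 1 or 4 the last 3 of these were lost, leaving 6, and without wild type replicate 2 Pex10 alone was lost.

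**Figure D4:**
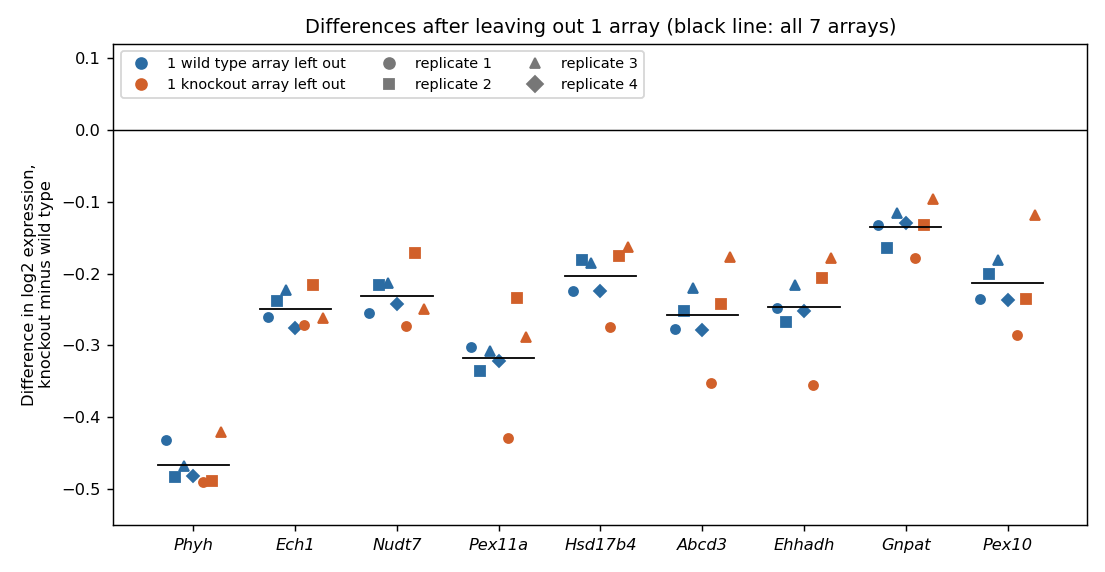
Log2 difference, knockout minus wild type, of the 9 lower members after leaving out 1 array, with the array left out given by colour and shape and the value from all 7 arrays as a black line. All points stay below 0, for members picked by p on these same arrays. Leaving out knockout replicate 1 gives the most negative value for each of them except Ech1.

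Other peroxisomal genes from a fixed list of 50, with 42 measured, went both ways. Of the 42, 25 were below and 17 above wild type, the median difference was -0.019, and at an unadjusted p under 0.05, 7 were lower and 2 higher. Over all genes, 53.3% were below wild type, and at that p 6.69% were lower and 3.93% higher. None of the 42 had an adjusted p under 0.05 in limma. The 6 of smallest p were Ephx2, an epoxide hydrolase, at -0.43 ± 0.08, Nudt19, a further coenzyme A hydrolase, at -0.34 ± 0.10, Ddo, D-aspartate oxidase, at -0.34 ± 0.10, Isoc1 at -0.26 ± 0.08, Acot6, an acyl-CoA thioesterase, at 0.16 ± 0.05 and Tysnd1, a peroxisomal protease, at -0.099 ± 0.034.

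Mitochondrial β-oxidation, the pathway that receives peroxisomal products, showed differences of 1 sign. Of 17 measured genes 17 were below wild type and 16 had an unadjusted p under 0.05, with a median difference of -0.25, and 0 passed an adjusted p of 0.05. For this list and the next, the shares of all genes were 53.3% below wild type and 6.69% lower at that unadjusted p. The 6 of smallest p were, in order, the very long-chain dehydrogenase Acadvl (-0.43 ± 0.05), the enoyl-CoA isomerase Eci1 (-0.35 ± 0.06), Hadha of the trifunctional protein (-0.20 ± 0.04), the carnitine acetyltransferase Crat (-0.19 ± 0.04), the dienoyl-CoA reductase Decr1 (-0.25 ± 0.05) and the carnitine palmitoyltransferase Cpt2 (-0.30 ± 0.07). Of 10 PPAR and partner genes 9 were below wild type and 3 had an unadjusted p under 0.05. These 3 were Ppara at -0.22 ± 0.09, its partner Rxra at -0.23 ± 0.08 and the oestrogen-related receptor Esrra at -0.11 ± 0.04, each with an adjusted p above 0.40 in limma. Whether these differences bear on those of the members was not tested.

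Fibre markers matched the labelled tissue, with 9 skeletal fibre genes between 13.14 (Mylpf) and 14.21 (Acta1) on average in wild type, and a median difference of 0.0012. Of these, Mb was lower at an unadjusted p under 0.05 in limma (-0.16 ± 0.04), with no overlap between the genotypes, and the other 8 did not reach that p. Markers of other cells and fibres differed between the genotypes in the same arrays. Myeloid markers were higher in 11 of 12 genes, and their summed linear signal was 3955 to 4278 in wild type and 6482 to 6998 in the knockout. Endothelial markers were lower in 12 of 12, with sums of 9583 to 10918 and 7988 to 8553. Slow fibre markers were higher in 6 of 7, with sums of 2543 to 3004 and 3451 to 5261. The slow fibre sum leans on its brightest gene, Atp2a2 (9.92 on average in wild type). Of the 7, 3 were higher without overlap, against 3.29% of all genes. On knockout replicate 2, Myh7, Myl3 and Tnnt1 lay within the wild type range and Myl2 below it. Adipocyte markers were lower in 6 of 8, with sums of 3277 to 3977 and 2883 to 3111. The adipocyte sum leans on its brightest gene, Fabp4 (11.02 on average in wild type). Of the 8 adipocyte markers, 3 were lower at an unadjusted p under 0.05 in limma and 5 were not. Over all genes, 6.69% were lower at that p and 53.3% had a difference below 0. Liver markers, whose tissue is rich in peroxisomes, had sums of 1551 to 1912 and 1615 to 1624, which overlapped, and 0 of 8 had an unadjusted p under 0.05. Immediate early genes summed to 9002 to 11858 in wild type and 9601 to 36155 in the knockout, with the top value in replicate 2. The part of these cells and fibres in the peroxisomal values was not tested. The targeted genes Prkaa1 and Prkaa2 differed by -0.51 ± 0.09, with no overlap between the genotypes, and -0.21 ± 0.07, with overlap. The sources used here do not give the deleted exons, so the genotypes rest on the labels. Array medians lay between 7.50 and 7.58, and r between arrays across genes, which are not independent replicates, was 0.9891 to 0.9974.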

How the data were processed

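Gene expression was measured in 7 muscles, 4 wild type and 3 knockout, taken as 1 mouse per array because the series design counts mice. Per the labels' protocols, RNA was extracted with TRIzol and 100 ng was labelled with biotin. The authors deposited 1 value table of 28856 probe sets, read here as log2 expression because values ran from 4.41 to 14.65, above the 11.09 that a 16-bit scanner reaches in natural log units. The base is thus inferred, with the background correction, normalization and summarization not given in the sources used here. Any scaling between arrays would hide a shift common to every gene. Identical values (to 4 decimals) on at least 2 arrays occurred for 17 of 37 members and 59.5% of all genes. The number of columns left unused was 0.

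Of the probe sets, 21789 had 1 symbol in GEO's platform annotation and were tested, standing for 19938 symbols, 1621 had several symbols and 5446 were unnamed here. A gene was read through the probe set with the highest mean over all arrays, and 21698 tested probe sets matched the RefSeq gene table of GRCm38.p6. Knockout was compared with wild type in limma 3.58.1 (lmFit, eBayes) in R 4.3.3 with no covariate and no filter, and Benjamini-Hochberg adjustment at 0.05. Values joined by ± are the log2 difference and its moderated standard error. Precision is limited by the number of arrays. In 3 runs on simulated data with 200 changed of 21789 probe sets each, 80.0% of changes of 0.5 and 93.7% of changes of 1 log2 unit were recovered, with 36 false among 557 calls. The simulated noise was independent between genes and the changes many, so these rates do not carry over to the members.

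The members and lists were chosen with earlier results of these data known. Values on every array are given for members with an unadjusted p under 0.05 or no overlap, the 3 Pex genes of smallest p, and Cat. From each of the 3 context lists up to 6 genes could be named, taken in order of p among those with an unadjusted p under 0.05. The 15 alternatives were leaving out each of the 7 arrays, a replicate block, median centring, quantile normalization, dropping the dimmest 25% of probe sets, a robust prior with trend, array weights, testing every probe set, and averaging a gene's probe sets.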

Additional observations from a re-analysis of the deposited data

Results flagged for a closer look

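In 3 of the 37 members 1 wild type array stood far from the other 3 by Dixon's criterion, which chance meets in about 1 in 20 groups. Abcd4 read 8.12 in wild type replicate 2 and 8.07 to 8.08 in the others. Dhrs4 read 8.42 in wild type replicate 4 and 8.44 in the others, which were identical. Agps read 8.22 in wild type replicate 1 and 8.29 in the others, also identical. Groups of 3 knockout arrays were not tested.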

How the results depend on the processing

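Of 554 values of members under the 15 alternatives, 32 changed sign, and 25 of the 37 members, the 9 lower ones among them, never did. Those 9 were picked for a small p on these same arrays, so their steady sign is no independent support. Phyh passed an adjusted p of 0.05 after quantile normalization (0.043), where 1 member passed against 0 in the other alternatives, and its adjusted p ran from 0.043 to 0.33 over all alternatives.

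The labels share replicate numbers, and same-numbered deviations from the group means correlated at 0.287, 0.159 and -0.197. Knockout replicates 1 and 2 correlated best with the wild type array of their own number, and knockout replicate 3 with wild type replicate 4 (0.204). Whether the numbers mark pairs is thus not settled, and the main fit did not use them. With the replicate number as a block, 0 genes passed, 4 members were lower and 1 was higher (Hacl1) at an unadjusted p under 0.05, Pex5 was -0.030, Pex3 -0.0083 and Agps 0.0034. Quantile normalization left 1 member higher without overlap and turned Amacr to 0.0035. Median centring turned Pex5 to -0.0021, Pex3 to -0.010 and Cat to -0.0056. Array weights made 1 member higher at an unadjusted p under 0.05 (Far1) and turned Acaa1b to -0.030, Dhrs4 to -0.0053 and Agps to 0.036. The filter on dim probe sets removed Acaa1b.

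Leaving out 1 array at a time gave 0 to 14 genes past the adjusted threshold against 5, with 14 without knockout replicate 1, 2 when knockout replicate 2 was left out, 1 for wild type replicate 2 and 0 for wild type replicate 1, 3 or 4. It gave 4 to 10 lower members at an unadjusted p under 0.05, 5 to 11 lower (8 on leaving out wild type replicate 2, 11 on leaving out knockout replicate 1) and 0 to 1 higher members without overlap. Over all genes, 4.14% to 8.5% were lower at an unadjusted p under 0.05, and 6.33% to 12.3% were lower without overlap (12.3% without knockout replicate 1 and 7.61% without wild type replicate 2), against 5.33% with all 7 arrays, since fewer arrays make separation easier. The Pex median ran from -0.082 without knockout replicate 1 to -0.041 without knockout replicate 2, that of the transporters and enzymes from -0.030 to -0.015 and that of all members from -0.065 to -0.029. Members that changed sign ranged from -0.045 to 0.052 (Pex5), -0.030 to 0.046 (Pex3), -0.15 to 0.025 (Pex2), -0.044 to 0.27 (Abcd2), -0.029 to 0.0022 (Abcd4), -0.054 to 0.084 (Acaa1b), -0.032 to 0.0023 (Acox2), -0.074 to 0.045 (Amacr), -0.039 to 0.069 (Dhrs4), -0.021 to 0.065 (Crot), -0.037 to 0.042 (Agps) and -0.037 to 0.047 (Cat). The cause of these shifts was not tested.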
